A study of Mus musculus with 12 samples.

Results

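Gzmb, Gzmc and Spp1 were followed across 4 groups of basophil-lineage cells sorted from mice. Gzmb and Gzmc encode granzymes B and C, serine proteases that cytotoxic cells store in granules. Spp1 encodes osteopontin, a secreted phosphoprotein. The 3 genes were chosen from these same libraries because mature basophils of the bone marrow (BM) held them well above mature basophils of the spleen, so that difference is given as a description and is not tested. They are 3 of the 32227 genes in the count table, and all 3 passed the count filter that kept 15083 genes for testing.

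Bulk RNA sequencing was performed on 12 libraries, 3 per group, from C57BL/6J wild-type mice of unstated age. All groups were CD200R3+ cKit-. BaPs, the basophil progenitors, were CD34+ CLEC12Ahi and pre-basophils were CD34- CLEC12Ahi CD9lo, both sorted from marrow. Mature basophils of marrow or spleen were CLEC12Alo CD9hi. No group was stimulated or genetically altered, and each library pooled cells of 4 animals in a single experiment, so each replicate is a pool and the errors do not describe single animals.

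Granzymes are made as inactive precursors, trimmed by the protease cathepsin C and packed on the proteoglycan serglycin. In cytotoxic lymphocytes perforin lets them into a target cell, where granzyme B cleaves after aspartate residues and starts apoptosis. Osteopontin is known from bone matrix, macrophages and activated lymphocytes, and it binds CD44 and several integrins. Basophils are granulocytes that release preformed proteases and cytokines, and their own granule protease MCPT8 is encoded in the same gene cluster as the granzymes B and C.

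Gzmb (ENSMUSG00000015437.5) lies on chromosome 14, 56258838 to 56262260, minus strand, and Gzmc (ENSMUSG00000079186.3) at 56231441 to 56234656 on the same strand, 24181 bases away (GRCm38, GENCODE M21). Spp1 (ENSMUSG00000029304.14) lies on chromosome 5, 104435118 to 104441050, plus strand. All 3 are protein coding. The 250 bases before the RefSeq start of each gene (GRCm38.p6) are shown because the 3 genes had like patterns across the groups. That likeness was favoured by choosing all 3 on the same difference. Capitals mark TGTGGT or its reverse complement ACCACA, letters bound by RUNX transcription factors:
Gzmb, chr14:56262335-56262584, minus strand: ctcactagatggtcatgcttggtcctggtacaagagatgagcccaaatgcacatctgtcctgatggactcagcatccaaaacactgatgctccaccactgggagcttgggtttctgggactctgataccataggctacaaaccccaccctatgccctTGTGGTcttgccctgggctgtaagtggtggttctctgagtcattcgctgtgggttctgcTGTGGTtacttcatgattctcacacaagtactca
Gzmc, chr14:56234658-56234907, minus strand: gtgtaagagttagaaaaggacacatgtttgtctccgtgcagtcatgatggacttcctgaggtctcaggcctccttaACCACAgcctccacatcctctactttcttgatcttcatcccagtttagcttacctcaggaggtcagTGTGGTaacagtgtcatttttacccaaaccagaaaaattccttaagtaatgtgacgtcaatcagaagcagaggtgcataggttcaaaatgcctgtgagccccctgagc
Spp1, chr5:104434861-104435110, plus strand: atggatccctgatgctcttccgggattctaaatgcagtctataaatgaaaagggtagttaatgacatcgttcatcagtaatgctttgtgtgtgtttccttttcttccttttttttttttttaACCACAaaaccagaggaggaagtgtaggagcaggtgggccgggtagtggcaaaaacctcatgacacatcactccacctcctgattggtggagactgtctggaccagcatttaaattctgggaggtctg

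Gzmb and Gzmc each held the RUNX letters 2 times and Spp1 held them 1 time, on either strand. In Gzmb they lay 93 to 88 and 34 to 29 bases before the start, in Gzmc 174 to 169 and 108 to 103, and in Spp1 128 to 123. Of 32851 promoters of the same length, 14% held the letters at least 1 time and 1.27% held them 2 or more times. The AP-1 letters TGANTCA, found in 6.75% of promoters, were present in Gzmb as TGAGTCA 58 to 52 bases before the start. The CRE letters TGACGT, found in 6.47%, were present in Gzmc 57 to 52 bases before the start, with an overlapping match on the other strand, and TATAAA, found in 12.4%, in Spp1 211 to 206 bases before it. The GATA letters AGATAA and the STAT letters TTCNNNGAA matched none of the 3 windows, and the second RefSeq promoter of Spp1 matched none of the 6 motifs. The motifs were chosen after the sequences were seen, and a match describes the letters and not a bound site.

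The deposited counts are reported as CPM, a gene's share of the library total on a fixed scale, with totals adjusted by edgeR's TMM factors. In Gzmb, the 3 BaP libraries read 396, 418 and 235 CPM and the 3 pre-basophil libraries 766, 656 and 726 CPM. The BM mature libraries read 624, 350 and 552 CPM and the spleen mature libraries 62.7, 118 and 69.2 CPM. Pre-basophils were the highest group and spleen mature basophils the lowest, and neither overlapped another group. BaPs and BM mature basophils overlapped in Gzmb, at means of 350 ± 100 and 509 ± 142 CPM (SD, n = 3), below 716 ± 55.7 CPM in pre-basophils and above the spleen mature mean of 83.3 ± 30.2 CPM. These values rest on 392 to 4538 counts of Gzmb per library. In bulk samples, fewer cells with a transcript and less of it per cell cannot be told apart.

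Gzmc, the nearest granzyme neighbour of Gzmb, had far fewer counts but the same highest and lowest groups. Its BaP libraries read 40.1, 32.5 and 15.0 CPM, its pre-basophil libraries 70.4, 55.7 and 64.1 CPM, its BM mature libraries 33.7, 23.0 and 29.0 CPM and its spleen mature libraries 3.68, 3.96 and 3.05 CPM. The means of Gzmc in BaPs and BM mature basophils, 29.2 ± 12.9 and 28.6 ± 5.36 CPM, differed by less than their spread. Pre-basophils had a mean of 63.4 ± 7.37 CPM, and spleen mature basophils one of 3.57 ± 0.464 CPM (SD, n = 3), outside all other libraries. The 3 spleen libraries held 23 or 24 Gzmc counts each.

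Spp1 in BaPs read 43.0, 28.5 and 15.0 CPM, and in pre-basophils 70.7, 52.1 and 67.5 CPM. Spp1 in BM mature basophils read 19.7, 11.8 and 24.1 CPM, and in spleen mature basophils 2.72, 1.32 and 3.98 CPM. Pre-basophils were again above and spleen mature basophils below every other library, while BaPs (28.8 ± 14 CPM) and BM mature basophils (18.5 ± 6.27 CPM) overlapped. The Spp1 mean of pre-basophils was 63.4 ± 9.95 CPM, and that of spleen mature basophils 2.67 ± 1.33 CPM (SD, n = 3). The lowest spleen value came from 8 counts, with an exact 95% Poisson interval of 3.45 to 15.8 counts that covers counting error only.

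**Figure D1:**
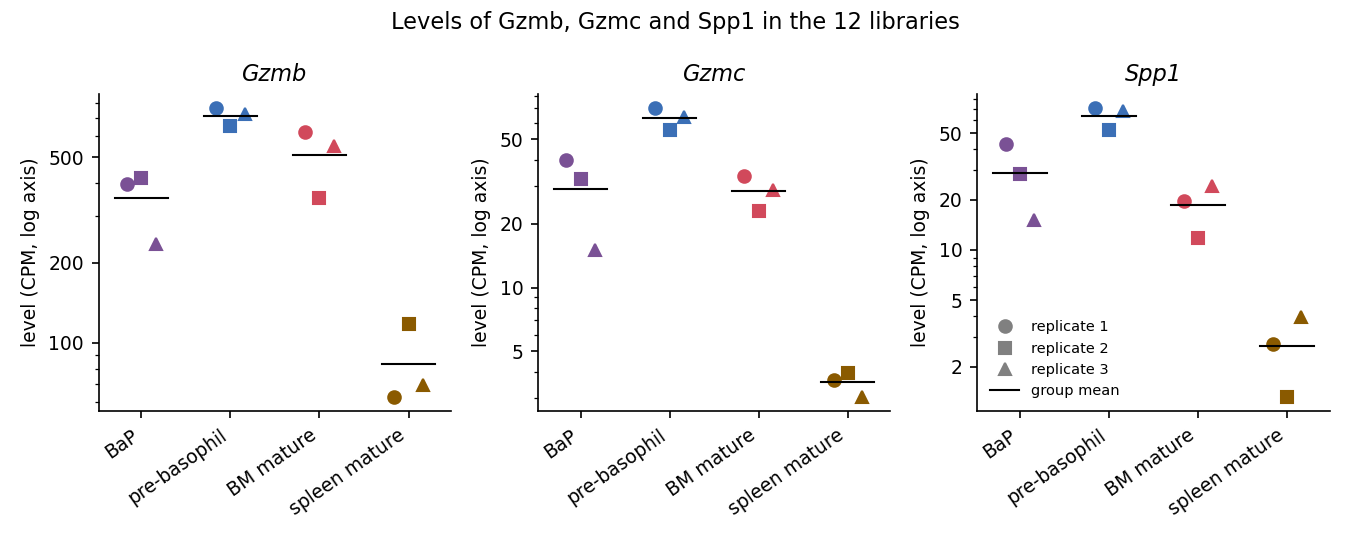
Level of Gzmb, Gzmc and Spp1 in each of the 12 libraries (y axis, CPM on a log scale) by sorted group (x axis), with the marker shape giving the replicate and the line the group mean of 3 libraries. Every pre-basophil library lies above every library of the other groups and every spleen mature library below them, while BaPs and BM mature basophils overlap.

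Set against the pre-basophil mean, the 3 genes fell away to different extents in BM mature basophils. Gzmb stood at 71.1% of its pre-basophil level there, Gzmc at 45.1% and Spp1 at 29.2%. In spleen mature basophils they stood at 11.6%, 5.62% and 4.22%. All 3 were therefore below their pre-basophil level already in the marrow, by a log2 fold change of 0.49 (SE 0.26) for Gzmb, 1.15 (SE 0.27) for Gzmc and 1.76 (SE 0.35) for Spp1, pre-basophils over BM mature basophils. Without BM mature replicate 2 the value of Gzmb was 0.29. Among the 15083 genes tested, 3607, 1266 and 607 were higher in pre-basophils by a larger log2 fold change. Genes lower in pre-basophils were not counted there. In this comparison 27.3% of genes were called, 16.3% higher and 11% lower in pre-basophils. The description of these genes as kept in marrow mature basophils fitted Gzmb most closely, with the lowest pre-basophil library at 656 CPM and the highest BM mature library at 624 CPM.

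**Figure D2:**
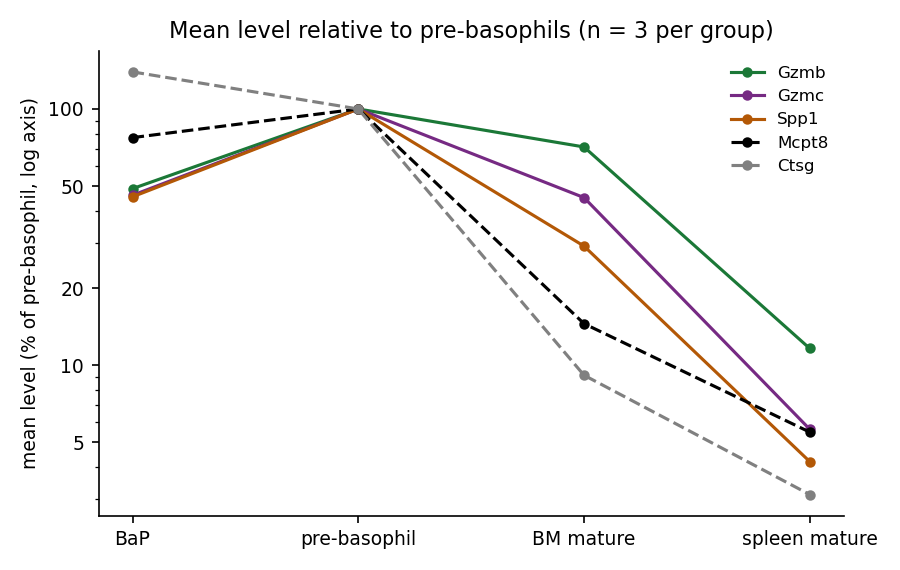
Mean level of each gene as a percentage of its pre-basophil mean (y axis, log scale) in the 4 groups (x axis, n = 3 libraries each), with Mcpt8 and Ctsg of the same chromosome 14 cluster as dashed lines. In BM mature basophils Gzmb stands at 71.1%, Gzmc at 45.1% and Spp1 at 29.2%, above both dashed lines.

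Between the mature groups, the difference that chose the genes, spleen mature basophils held Gzmb at 16.4%, Gzmc at 12.5% and Spp1 at 14.4% of the BM mature level. The log2 fold changes, spleen over BM, were -2.61 (SE 0.28), -3 (SE 0.33) and -2.76 (SE 0.435). Of the 15083 genes tested, 23, 13 and 22 were lower in the spleen by a larger log2 fold change. Genes higher in the spleen were not counted there. In this comparison 7.83% of genes were called, 4.67% lower and 3.16% higher in the spleen, from which nothing is read about the 3 genes, since the contrast chose them. The B cell markers (5 of 5 in the table) summed to 171 to 309 CPM in spleen mature libraries against 34.1 to 49.4 CPM in BM mature libraries, and 3 of the 5 were called higher in the spleen. Their part in the result was not tested.

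The comparison of BaPs with pre-basophils was not used to choose the genes and was tested. Gzmb was 2.05-fold lower in BaPs (log2 fold change -1.04, SE 0.26, adjusted p = 0.0323, edgeR quasi-likelihood test) and Gzmc 2.22-fold lower (-1.15, SE 0.27, adjusted p = 0.0215). Spp1 had a log2 fold change of -1.17 (SE 0.34) and did not pass (adjusted p = 0.0521). With the replicate number as a block, which these groups share, Spp1 passed (-1.19, adjusted p = 0.0293). For each of the 3 genes, all 3 BaP libraries were below all 3 pre-basophil libraries. The share of all genes whose libraries separate in this way is not given here. Of all genes tested, 7.08% were called, 4.29% lower and 2.79% higher in BaPs. These were 421 higher and 647 lower, which became 1290 higher and 330 lower when libraries were scaled by their totals alone.

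The calls, more than the fold changes, depended on single libraries. Leaving out pre-basophil replicate 1, 2 or 3 gave an adjusted p of 0.111, 0.0805 or 0.101 for Gzmb and 0.0900, 0.0532 or 0.0764 for Gzmc, with log2 fold changes of -0.97, -1.10 or -1.03 for Gzmb and -1.06, -1.24 or -1.14 for Gzmc. Without BaP replicate 3, the lowest library for all 3 genes among BaPs, the log2 fold changes shrank to -0.81 for Gzmb, -0.79 for Gzmc and -0.82 for Spp1, with adjusted p of 0.0252, 0.00459 and 0.0401. Without BaP replicate 1, Spp1 also passed (-1.59, adjusted p = 0.0150).

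**Figure D3:**
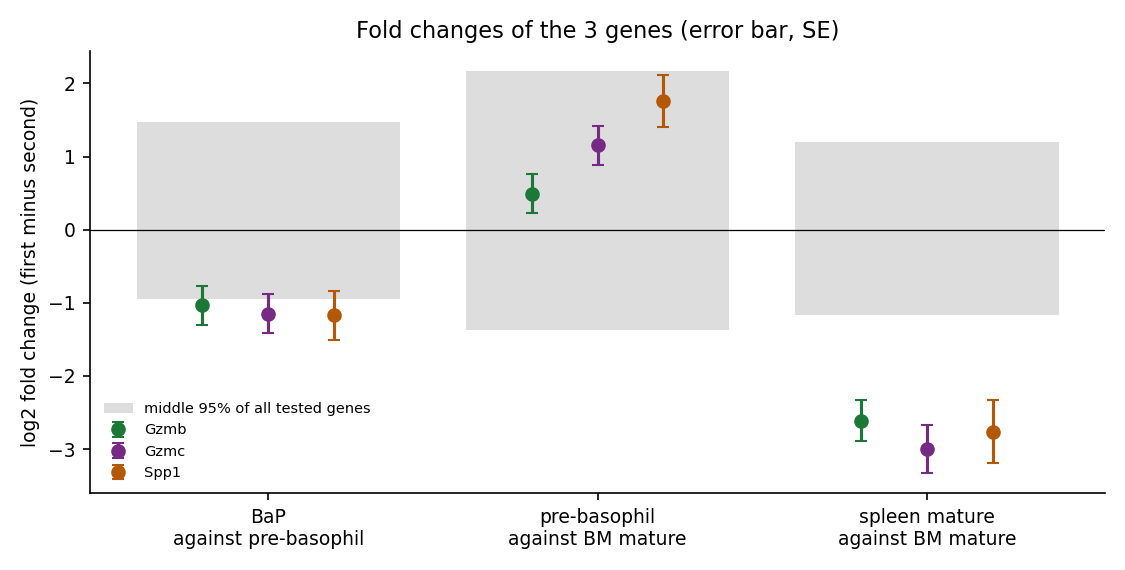
Log2 fold change (y axis, first group minus second, edgeR) of Gzmb, Gzmc and Spp1 in 3 comparisons (x axis), error bars giving the SE and the grey band the middle 95% of all 15083 genes tested. The 3 genes lie below the band in BaPs against pre-basophils (-1.04 to -1.17) and in spleen against BM mature basophils (-2.61 to -3), and inside it in pre-basophils against BM mature basophils (0.49 to 1.76).

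BaP replicate 3 stood apart from the other BaP libraries. Its 8 basophil markers summed to 24200 CPM, against 65200 and 60500 CPM in BaP replicates 1 and 2. Its 8 natural killer (NK) cell markers summed to 919 CPM, against 3.58 and 7.07 CPM, and the NK receptor gene Ncr1 had 974 counts, against 0 and 2. T cell markers (6 of 6) summed to 184 CPM in it, and to 9.43 to 33.1 CPM in the other 11 libraries. NK and T cells are known to express granzymes. The comparison without this library is given above, and the part of these cells in its Gzmb and Gzmc was not tested.

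Mcpt8, the basophil protease gene of the chromosome 14 cluster, offered a scale inside each library. Per 1000 Mcpt8 counts, BaP libraries held 33.1 to 46.9 Gzmb counts and pre-basophil libraries 58.3 to 62.1. Gzmc stood at 3 to 3.35 against 5.12 to 5.71 counts per 1000 Mcpt8 counts, and Spp1 at 2.69 to 3.59 against 4.79 to 5.73. These ranges include BaP replicate 3, which had the highest Gzmb value of the BaPs (46.9, against 33.1 and 39.4). The BaP and pre-basophil libraries did not overlap on this scale, and the share of all genes that separate on it is not given here. Dividing by Mcpt8 does not remove granzyme transcripts that NK or T cells may add. In BM mature basophils the values were 294 ± 80.2 for Gzmb, 16.5 ± 2.84 for Gzmc and 10.8 ± 4.04 for Spp1, above every library of the other groups. In spleen mature basophils they were 125 ± 26.6, 5.53 ± 1 and 4.27 ± 2.27 (SD, n = 3). The ratio divides by a gene that itself fell between these groups.

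**Figure D4:**
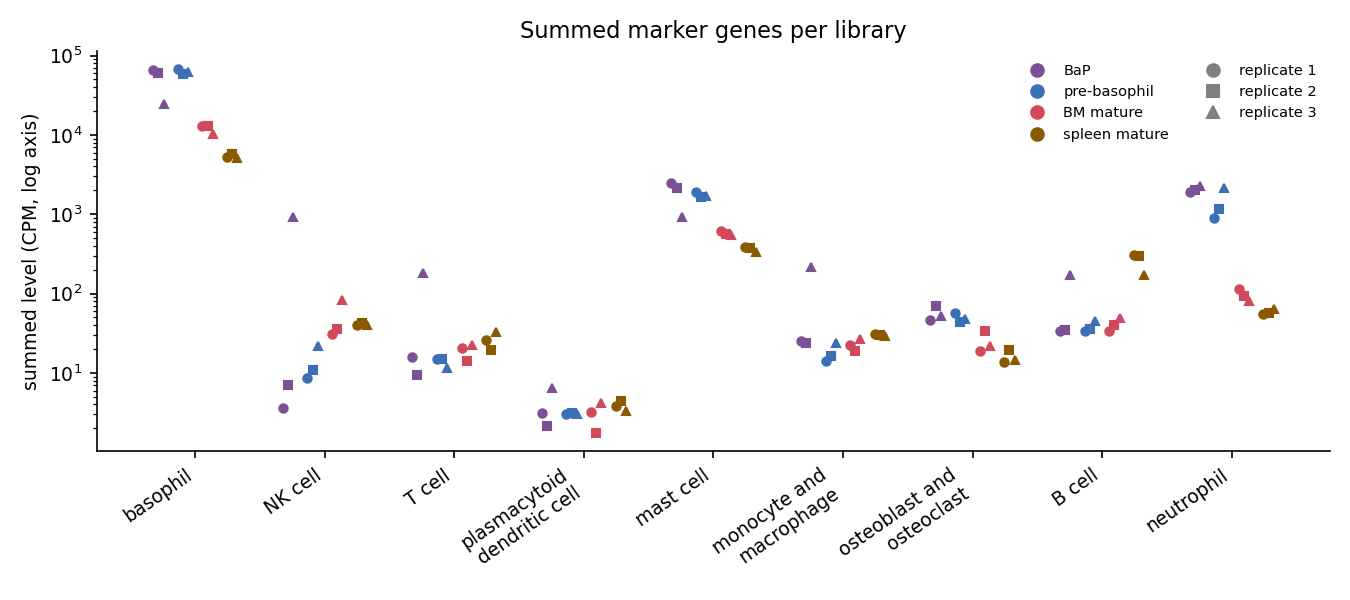
Summed level of the marker genes of 9 cell types (y axis, CPM on a log scale) in each library, coloured by group and shaped by replicate. BaP replicate 3 stands at 24200 CPM for basophil and 919 CPM for NK cell markers, and B cell markers are highest in the spleen mature libraries.

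Other lineages that could carry these transcripts were checked with marker lists. Plasmacytoid dendritic cell markers, 3 of 4 in the table, summed to between 1.75 and 6.49 CPM in all libraries. NK cell markers summed to 8.66 to 21.9 CPM in pre-basophils, 30.9 to 82.2 CPM in BM mature basophils and 40.2 to 42.6 CPM in spleen mature basophils. Osteoblast and osteoclast markers, cells known for osteopontin, summed to 47.1 to 70.7 CPM in BaPs and 44.3 to 57.0 CPM in pre-basophils. They summed to 19.1 to 33.3 CPM in BM mature and 13.6 to 19.6 CPM in spleen mature basophils. Pre-basophil sums lay above those of both mature groups, as for Spp1, but overlapped those of BaPs, unlike Spp1. In pre-basophils the sums came nearly all from the osteoclast phosphatase gene Acp5 (39.4 to 54.5 CPM). Of the 2 markers tested, 1 was called higher in pre-basophils than in BM mature basophils, where 16.3% of all genes were. The osteoblast gene Bglap was at 0 in every library but BaP replicate 3, which had 1 count. Monocyte and macrophage markers ran from 14.3 to 30.7 CPM in every library but BaP replicate 3, at 215 CPM. The 7 neutrophil markers summed to 1890 to 2280 CPM in BaPs and 906 to 2120 CPM in pre-basophils, against 79.7 to 114 CPM in BM mature basophils. In pre-basophil replicate 1, Mpo gave 623 of the 906 CPM. All 7 were called higher in pre-basophils than in BM mature basophils, where 16.3% of all genes were. Mast cell markers, 5 of 7 in the table, summed to 1660 to 1930 CPM in pre-basophils, 550 to 620 CPM in BM mature and 330 to 383 CPM in spleen mature basophils. In those groups the sums came nearly all from Cpa3 (1660 to 1930 CPM in pre-basophils). The part of these cells in the results was not tested.

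Levels were compared between genes as CPM per kilobase of transcript, a scale that assumes evenly spread reads, which was not checked. On that scale Gzmb stood at 499 in pre-basophils, Gzmc at 70.9 and Spp1 at 42.1. Mcpt8 stood at 12600 and Ctsg, encoding cathepsin G, at 1290. Granzyme B transcripts were thus the third protease transcript of the cluster in pre-basophils, behind both. In BM mature basophils Gzmb stood at 354, above Ctsg at 118 and below Mcpt8 at 1830. In spleen mature basophils Gzmb stood at 58.0, Ctsg at 40.3 and Mcpt8 at 691.

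The chromosome 14 protease cluster, from Cma1 to Gzmb, spans 320810 bases and holds 15 protein-coding genes in GENCODE M21, of which 12 were in the count table. Only Mcpt8, Ctsg, Gzmc and Gzmb had at least 100 counts over the 12 libraries. Gzmd, Gzme, Gzmf and Gzmg, which lie between Ctsg and Gzmc, had 6, 9, 2 and 10 counts in all. Of the 50-base stretches of the Gzmc transcript, 4.14% also occur in Gzmd, Gzme or Gzmg, and none of those of Gzmb occur in another gene. Spp1 is the last gene of a chromosome 5 cluster with Dspp, Dmp1, Ibsp and Mepe, bone and tooth matrix genes, which had 2, 21, 6 and 16 counts in all against 1638 for Spp1. BM mature libraries held 19 of the Dmp1 and 16 of the Mepe counts, beside 238 of Spp1. Spleen mature libraries held 2, 0 and 55 in the same order. In BM mature basophils Dmp1 averaged 1.23 ± 1.86 CPM and Mepe 1.02 ± 1.55 CPM, spreads larger than the means. The part of bone cells in the Spp1 of this group was not tested. Of the Spp1 stretches 9.05% also occur in the overlapping gene Gm42793, so reads there cannot be assigned with certainty.

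Mcpt8 and Ctsg were the other cluster genes with enough counts to test. In BaPs against pre-basophils neither was called (Mcpt8 log2 fold change -0.37, adjusted p = 0.39, Ctsg 0.47, adjusted p = 0.432). From pre-basophils to BM mature basophils both fell, Mcpt8 from a mean of 11900 to one of 1730 CPM (log2 fold change 2.78, SE 0.25, adjusted p = 6.43e-06) and Ctsg from 1290 ± 161 to 118 ± 36.6 CPM (log2 fold change 3.46, SE 0.365, adjusted p = 1.69e-05), which left them at a smaller share of the pre-basophil level than Gzmb, Gzmc or Spp1. Both were lower again in spleen than in BM mature basophils, by log2 fold changes of -1.41 for Mcpt8 (SE 0.24, adjusted p = 0.00606) and -1.54 for Ctsg (SE 0.35, adjusted p = 0.0206). Without BaP replicate 3, 1 of the 2 was called higher in BaPs. The count of 2 lower in the spleen became 1 without BM mature replicate 1 or 2 or spleen mature replicate 1 or 3. These differences of Mcpt8 and Ctsg were not tested against those of the granzymes.

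The counts of Gzmb per count of Gzmc changed along the same groups. They came to 12.8 ± 2.89 for BaPs, 11.3 ± 0.446 for pre-basophils, 17.6 ± 2.07 for BM mature basophils and 23.2 ± 6.39 for spleen mature basophils (SD, n = 3). The pre-basophil libraries (10.9 to 11.8) lay below every BM mature library (15.2 to 19), whereas BM mature and spleen mature libraries (17.0 to 29.8) overlapped.

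Other granzymes were scarce. Of 8 listed granzyme genes, only Gzma, encoding granzyme A, had enough counts to be tested, and it was called in no comparison. Gzma averaged 3.39 ± 3.22 CPM in pre-basophils, 17.5 ± 9.77 CPM in BM mature and 21.4 ± 7.94 CPM in spleen mature basophils. In BaPs it averaged 116 ± 196 CPM (log2 fold change against pre-basophils 4.96, SE 1.47, adjusted p = 0.0575), a spread larger than the mean in the group that holds BaP replicate 3. Without BaP replicate 3 its direction turned (-0.83, not called). Gzma was called higher in BaPs without BaP replicate 1 or 2, and lower in pre-basophils than in BM mature basophils without BaP replicate 3.

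Of the genes that pack, activate, deliver and inhibit granzymes, 9 of 11 listed were tested. In BaPs against pre-basophils 1 of 9 was called higher, where 2.79% of all genes were, and in pre-basophils against BM mature basophils 3 of 9 were, where 16.3% of all genes were. In spleen against BM mature basophils 2 of 9 were called lower, where 4.67% of all genes were. Srgn, encoding the granule proteoglycan serglycin, stood at 6260 ± 1370 CPM in BM mature and 3340 ± 269 CPM in spleen mature basophils (log2 fold change -0.91, SE 0.22, adjusted p = 0.0249). Nkg7, a cytotoxic granule membrane protein gene, fell at each step, from 413 ± 80.7 CPM in BaPs to 204 ± 14.2 in pre-basophils (adjusted p = 0.00254), 66.3 ± 9.74 in BM mature (adjusted p = 1.53e-05) and 41.9 ± 7.16 CPM in spleen mature basophils (adjusted p = 0.0315). Ctsh and M6pr, encoding the protease cathepsin H and a receptor that sorts enzymes to lysosomes, were higher in pre-basophils than in BM mature basophils by log2 fold changes of 0.78 and 0.75. Ctsc, encoding cathepsin C, read 118 ± 30.3 CPM against 77.5 ± 11.4 CPM in the same comparison and was not called (adjusted p = 0.0689). Prf1, encoding perforin, averaged 1.16 ± 1.11 CPM in pre-basophils, 2.93 ± 2.35 in BM mature and 3.23 ± 0.377 CPM in spleen mature basophils, and Serpinb9, encoding a granzyme B inhibitor, 1.83 to 2.73 CPM in those groups. In BaPs Prf1 averaged 20.4 ± 34.4 CPM and Serpinb9 17.2 ± 27.7 CPM, spreads larger than the means. These BaP means, and that of Nkg7, include BaP replicate 3 with its NK and T cell markers. The 1 BaP call became 4 without BaP replicate 1 or 2, and the 3 pre-basophil calls became 5, 4 higher and 1 lower, without BaP replicate 3. The 2 spleen calls fell to 0 without BM mature replicate 1 or 3 or spleen mature replicate 1 or 3, and to 1 without BM mature replicate 2 or spleen mature replicate 2.

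Known granzyme B substrates were expressed in all groups, and 3 of the 5 reported were called higher in pre-basophils than in BM mature basophils, where 16.3% of all genes were. These were the DNA repair enzyme gene Parp1, the nuclear lamina gene Lmnb1 and Casp8, an initiator of cell death. Parp1 stood at 27.6 ± 6.64 against 15.3 ± 4.36 CPM (log2 fold change 0.86, SE 0.23, adjusted p = 0.0127), Lmnb1 at 169 ± 24.3 against 100 ± 20.2 CPM (adjusted p = 0.0101) and Casp8 at 36.3 ± 2.77 against 27.7 ± 4.06 CPM (adjusted p = 0.0495). Parp1 was also higher in BaPs than in pre-basophils (62.9 ± 8.27 against 27.6 ± 6.64 CPM, adjusted p = 0.00509), and Lmnb1 was lower in spleen than in BM mature basophils (45.6 ± 2.38 against 100 ± 20.2 CPM, adjusted p = 0.00615). Bid was called in no comparison. The count of 3 became 0 without pre-basophil replicate 1, 1 without BM mature replicate 2 and 2 without any 1 of the other libraries except BaP replicate 3, and it was also 2 with the replicate block, with RLE scaling, without the filter, in DESeq2 and in a fit of the 6 libraries alone.

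Most of the called osteopontin receptors were lower in pre-basophils than in BM mature basophils. Of 8 tested from 9 listed, 3 integrin subunits were lower there and 1 was higher, where 11% of all genes were called lower and 16.3% higher. Itgb3, whose product pairs with the alpha V chain in an osteopontin receptor, stood at 46.4 ± 4.61 CPM against 143 ± 15.4 CPM (log2 fold change -1.62, SE 0.44, adjusted p = 0.0133). Itgb1 (-0.79, adjusted p = 0.0037) and Itgb5 (-2.005, adjusted p = 0.0185) were likewise lower in pre-basophils. Itga8 ran the other way, at 20.8 ± 2.80 CPM in pre-basophils, 6.26 ± 2.30 in BM mature and 1.89 ± 1.09 CPM in spleen mature basophils, with both steps called (adjusted p = 0.00276 and 0.0323). Itga5 was higher in spleen than in BM mature basophils (24.4 ± 1.05 against 12 ± 2.41 CPM, adjusted p = 0.0117), and Itga4 was higher in BaPs than in pre-basophils (162 ± 138 against 52.2 ± 10.7 CPM, adjusted p = 0.0294). The Itga4 spread was near its mean in the group that holds BaP replicate 3. Its value without that library is not given here.

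Cd44, encoding the CD44 receptor of osteopontin, averaged 75.7 ± 2.4 CPM in pre-basophils, against 136 ± 5.18 and 193 ± 4.39 CPM in the mature cells of marrow and spleen and 57.5 ± 45.9 CPM in BaPs, and was called in no comparison (adjusted p = 0.0929 in pre-basophils against BM mature basophils). Without BaP replicate 3, the osteopontin receptors called numbered 4 in BaPs against pre-basophils (1 higher, 3 lower) and 6 in spleen against BM mature basophils (5 higher, 1 lower). In the main fit 1 of 8 was called in BaPs against pre-basophils, where 7.08% of all genes were. It fell to 0 without any 1 of the pre-basophil replicates. Between the mature groups 2 of 8 were called, where 7.83% of all genes were. The 2 spleen calls fell to 0 without BM mature replicate 1 or spleen mature replicate 3, and to 1 without BM mature replicate 2 or 3 or spleen mature replicate 1. Of the 10 genes for osteopontin relatives and processing enzymes, only the protease gene Mmp9 was tested, and it was called in no comparison.

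**Figure D5:**
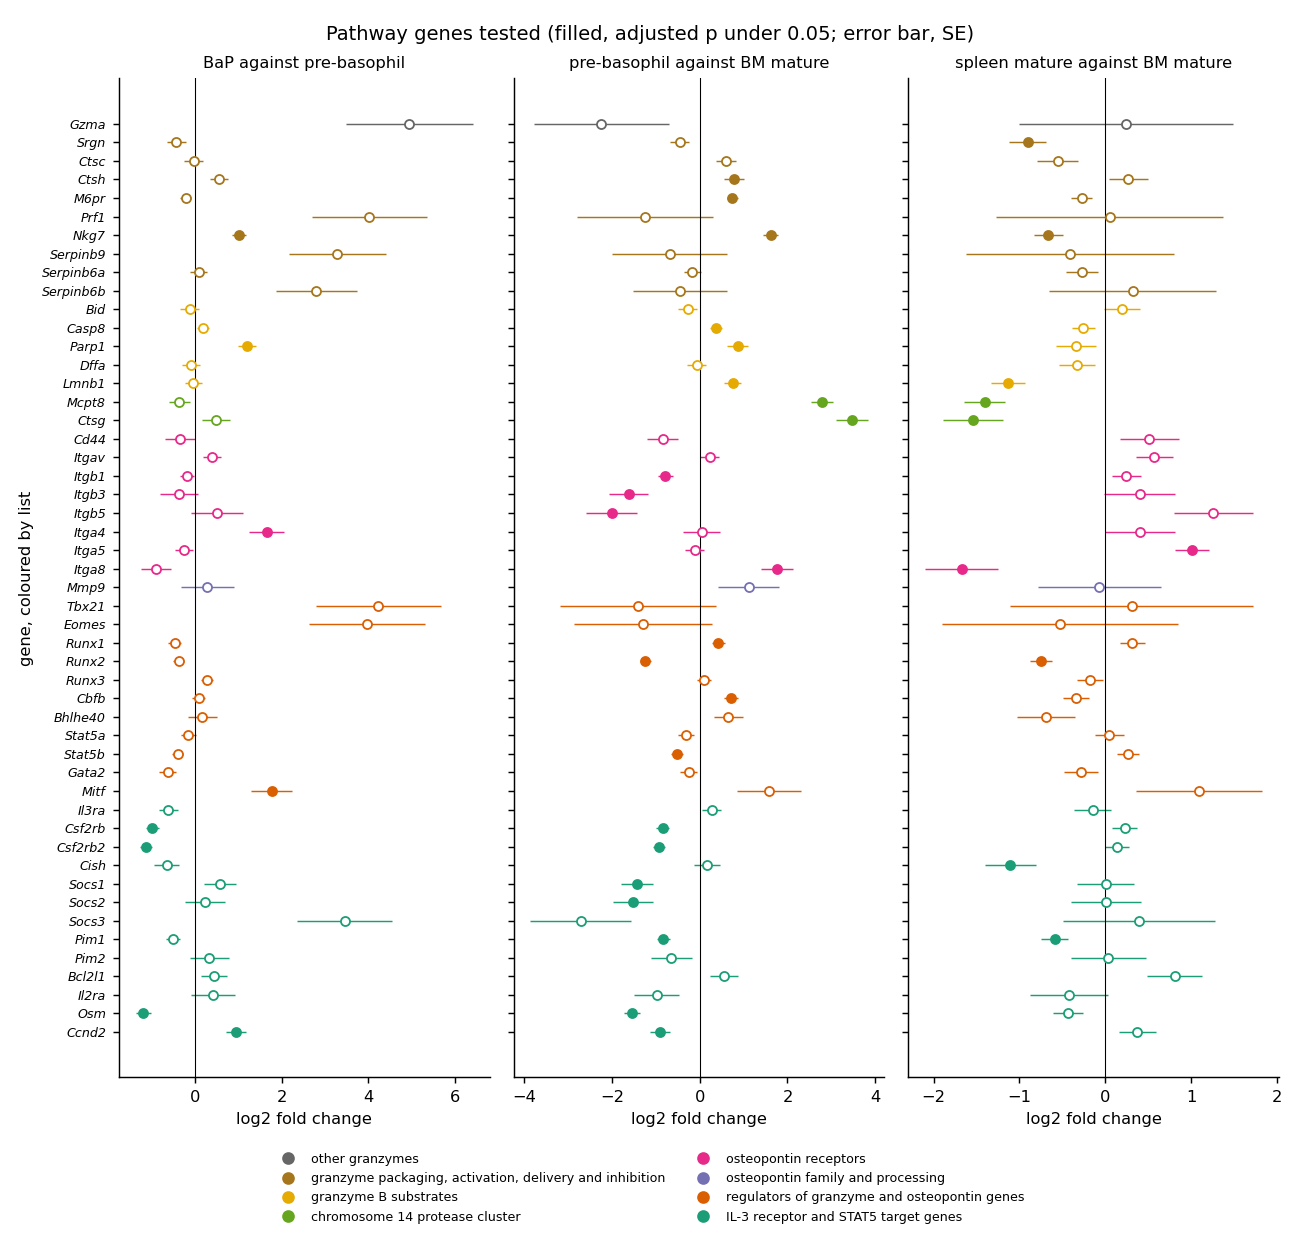
Log2 fold change (x axis, first group minus second, error bars SE) of the pathway genes tested (y axis), coloured by list, in 3 comparisons with their own x scales. Filled points passed an adjusted p of 0.05, among them Srgn, Nkg7, Mcpt8 and Ctsg, lower in spleen than in BM mature basophils.

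Regulators of granzyme and osteopontin genes included the RUNX family whose letters are marked in the promoters. Runx2 stood at 78.5 ± 3.90 CPM in pre-basophils, 185 ± 13.6 in BM mature and 110 ± 12.6 CPM in spleen mature basophils, lower than BM mature in both (log2 fold changes -1.23, adjusted p = 1.88e-05, and -0.75, adjusted p = 0.00606). Runx1 was higher in pre-basophils than in BM mature basophils (477 ± 5.50 against 355 ± 18.7 CPM, adjusted p = 0.049), as was Cbfb, which encodes the RUNX partner subunit (150 ± 14.1 against 91.2 ± 4.65 CPM, adjusted p = 0.00308). Of 11 regulators tested, 2 were called higher in pre-basophils, where 16.3% of all genes were, and 2 lower, where 11% were. The 2 higher calls fell to 1 with RLE scaling, in DESeq2 and without any 1 of the pre-basophil, BM mature or spleen mature libraries. Runx3, a regulator of granzyme B in T cells, ran from 43.4 to 63.0 CPM in the group means and was called in no comparison. Tbx21 and Eomes, encoding the T-box factors of cytotoxic lymphocytes, averaged between 0.601 and 3.15 CPM in pre-basophils and both mature groups. Stat5b was lower in pre-basophils than in BM mature basophils (-0.52).

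In BaPs against pre-basophils 1 of 11 regulators was called, where 7.08% of all genes were. It was Mitf, a factor of mast cell and osteoclast genes, at 3.47 ± 0.752 against 0.981 ± 0.713 CPM (adjusted p = 0.0414). Mitf had 64 counts in all in BaPs and 14 in pre-basophils. The number of regulators called was 3 with the replicate block, 1 higher and 2 lower. It fell to 0 without any 1 of the pre-basophil or spleen mature replicates or without BM mature replicate 2 or 3, was 3 or 4 without BaP replicate 1 or 2, and was 4 without BaP replicate 3. Between the mature groups 1 of 11 was called, Runx2, lower in the spleen, where 4.67% of all genes were called lower. That number became 3 without BaP replicate 3.

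IL-3 acts on basophils through a receptor that shares its beta chain with other cytokines and signals through STAT5. Of 13 genes of this pathway, 7 were called lower in pre-basophils than in BM mature basophils and none higher, where 11% of all genes were called lower and 16.3% higher. They were the receptor chains Csf2rb and Csf2rb2, the feedback genes Socs1 and Socs2, the kinase gene Pim1, the cytokine gene Osm and the cyclin gene Ccnd2. Osm stood at 1370 ± 139 CPM against 4010 ± 154 CPM (log2 fold change -1.55, SE 0.18, adjusted p = 4.11e-05). Csf2rb rose from 346 ± 84.9 CPM in BaPs to 687 ± 16.1 in pre-basophils (adjusted p = 0.00178) and 1230 ± 47.5 CPM in BM mature basophils (adjusted p = 0.000908). Csf2rb2 and Osm were also lower in BaPs than in pre-basophils, and Ccnd2 was higher in BaPs (100 ± 42.3 against 52.6 ± 7.56 CPM, adjusted p = 0.0237). The wide spread of Ccnd2 lay in the group that holds BaP replicate 3.

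Between the mature groups, 2 of the 13 IL-3 pathway genes were called, both lower in the spleen, where 4.67% of all genes were. Cish, an inhibitor induced by STAT5, read 79.3 ± 28.7 CPM in BM mature and 36.7 ± 3.36 CPM in spleen mature basophils (adjusted p = 0.0383), and Pim1 704 ± 163 and 468 ± 46.1 CPM (adjusted p = 0.0353). The count fell to 0 when BM mature replicate 1 or 3, spleen mature replicate 1 or 3 or pre-basophil replicate 3 was left out, to 1 without spleen mature replicate 2, and rose to 5 without BaP replicate 3 (2 higher, 3 lower).

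The likeness of patterns was described by Pearson's r of log2 CPM over the 12 libraries, among 9643 genes with a mean of at least 10 CPM in their highest group. The 12 points fall into 4 groups whose libraries share a sort, so r mainly follows the group means. Gzmb was most like Gzmc (r = 0.974), the cytokine gene Tnf (0.974) and the cytokine gene Il6 (0.967). Gzmc was most like Tnf (0.993), the unnamed gene model Gm10584 (0.988) and the hydrolase gene Ggh (0.980). Spp1 was most like the proteasome gene Psmb3 (0.970), the innate receptor gene Clec4e (0.967) and the calcium-binding protein gene Pdcd6 (0.967). The ranks depended on the libraries and the measure. Without BaP replicate 3, Il6 ranked 1, Gzmc 6 and Tnf 7 for Gzmb, Tnf ranked 1, Gm10584 4 and Ggh 6 for Gzmc, and Psmb3 ranked 6, Clec4e 11 and Pdcd6 5 for Spp1. By Spearman's rho Gzmc ranked 8 and Tnf 11 for Gzmb, and Clec4e 45 and Pdcd6 52 for Spp1.

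Mean levels of Tnf, in CPM, were 164 for BaPs, 310 for pre-basophils, 153 for BM mature and 36.3 for spleen mature basophils, the order seen in Gzmc. Il6 had 1350, 3200, 2360 and 588 CPM, with BM mature basophils above BaPs as in Gzmb. All 3 genes were chosen for the same difference between the mature groups, so a high r among them was favoured by the choice. Gzmb and Gzmc had r = 0.974, Gzmc and Spp1 0.963 and Gzmb and Spp1 0.902, the last ranking 71 among the genes most like Gzmb. After each library was taken as its deviation from its group mean, r was 0.771, 0.605 and 0.254 in the same order. Within the groups, Spp1 followed Gzmb least.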

How the data were processed

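Sorted cells were lysed, and the authors amplified polyadenylated RNA by the TAS-Seq workflow, trimmed reads with Cutadapt 3.4 and mapped them with Bowtie2 2.4.2 to reference transcripts. The deposited values are raw read counts per gene. The study's methods name GRCm38, whereas the submitters' processing notes list GRCm39. Positions here come from GENCODE M21 on GRCm38. Molecular identifiers, strand and the treatment of reads matching several genes are not given in the sources used here, so intervals cover counting error only.

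Library totals ran from 3596108 to 8151030 counts, and 3 counts, the limit that a count of 0 allows, corresponded to 0.290 to 0.955 CPM. Each pair of replicates differed by more than counting noise. Genes passing filterByExpr were tested in edgeR 4.0.16 (R 4.3.3) with TMM scaling and 1 quasi-likelihood model of the 12 libraries, with Benjamini-Hochberg adjustment over all tested genes and a threshold of 0.05. Log2 CPM took a prior count of 2. The steps were tested on simulated data. Alternatives were RLE and total-count scaling, repeated TMM (DEGES) with a likelihood ratio test, no filter, DESeq2 1.42.0, the 6 libraries of a comparison, the replicate block and leaving out each library, and the likeness without BaP replicate 3 was added after seeing the data.

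Genes named were the 3 chosen genes, pathway list genes that passed the filter (those called first, then the most abundant), markers by list total and the 3 genes most like each member. Ncr1, Bglap and the low-count neighbours in both clusters were named after their values were seen. Of the granzyme B substrates listed, 2 are not reported here. The members and lists were chosen with earlier results of these data known. Same-numbered libraries deviated together in BaPs and pre-basophils (r = 0.228, 0.125 and 0.262) and in pre-basophils and BM mature basophils (0.138, 0.153 and 0.223), but not in the mature groups (0.021, 0.008 and 0.025), so the numbers were taken to pair the former. The labels do not say what the numbers share. The main fit did not use the pairing, and the fit with the replicate block did.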

Additional observations from a re-analysis of the deposited data

How the results depend on the processing

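The directions of Gzmb, Gzmc and Spp1 held in all 3 comparisons under every alternative run. In BaPs against pre-basophils, Gzmc did not pass in a fit of the 6 libraries alone (-1.14, adjusted p = 0.0816). Spp1 passed with libraries scaled by their totals (-0.996), which shifted the median of all genes to 0.228, with DEGES (-1.14), without the filter (-1.17), in DESeq2 (-1.14) and with the replicate block (-1.19). Leaving out 1 library gave -1.19 to -0.81 for Gzmb (adjusted p 0.0226 to 0.111), -1.47 to -0.79 for Gzmc (0.00459 to 0.0900) and -1.59 to -0.82 for Spp1 (0.0150 to 0.163). In spleen against BM mature basophils, leaving out 1 library gave -2.94 to -2.44 for Gzmb, -3.13 to -2.89 for Gzmc and -3.18 to -2.45 for Spp1, and in pre-basophils against BM mature basophils 0.29 to 0.66, 1.03 to 1.28 and 1.53 to 2.02 in the same order. The genes called in BaPs against pre-basophils, 1068, became 1620 with library totals (79.6% of them higher, against 39.4%), 2091 without the filter (58.8% higher) and 375 in the 6 libraries, and ran from 382 to 1831 with 1 library left out (471, 390 and 382 without pre-basophil replicates 1, 2 and 3, 1831 without BaP replicate 3). Those called in spleen against BM mature basophils, 1181, became 1796 without the filter and 2340 in the 6 libraries, and ran from 241 to 2653 (249, 459 and 448 without BM mature replicates 1, 2 and 3, 757, 543 and 241 without spleen mature replicates 1, 2 and 3, 2653 without BaP replicate 3). With library totals the higher calls made up 82.5% against 59.8% in pre-basophils against BM mature basophils and 60.6% against 40.4% in spleen against BM mature basophils. Beside Spp1 and the count of regulators, the replicate block changed no call of the 3 genes and no list count by more than 1.5 times. Of the list counts under all alternatives, 380 stayed within 1.5 times and 76 did not. The cause of these changes was not tested. With 8 to 30 counts of Gzmc or Spp1 in a spleen library, small differences within the spleen were not detectable at this depth.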
